A study of Mus musculus with 89 samples.

Results

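Lungs of OVA-challenged mice given core CuO, the nanomaterial without surface modification, at 10 μg/mouse were compared with lungs of OVA-challenged controls that received no nanomaterial. The exposed group was chosen from the sample labels and held 3 of the 89 samples of the series, and the control group held 8. Each sample was an independent pool of 2 RNA samples, so its value is not that of a single mouse, and the p-values measure the spread between pools. All mice of both groups were female BALB/c mice, 6 to 8 weeks old, that had been sensitised with intraperitoneal OVA in alum, and PBS-challenged mice had been sensitised in the same way. They then received OVA in PBS by oropharyngeal aspiration on 4 consecutive days, with or without CuO in the same aspirate, and lung tissue was taken 24 h after the last exposure. The groups set beside the exposed one were core CuO at 2.5 or 40 μg/mouse with OVA, core CuO at 10 μg/mouse with a PBS challenge, and CuO COOH, which carries carboxyl groups on its surface, at 10 μg/mouse with OVA. Doses were masses of the whole material, so CuO COOH also brought a different amount of copper.

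OVA given to the airways of sensitised mice provokes a type 2 response with eosinophils, IL-4 and IL-13 signalling and mucus production by goblet cells. CuO particles are taken up by phagocytes and dissolve in acidic lysosomes, and the copper ions bind to metallothioneins, whose genes are switched on through metal response elements. Free copper also drives oxidative reactions, to which cells respond with heme oxygenase 1 and ferritin, while injured lung tissue attracts neutrophils and monocytes through chemokines.

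Of 22851 tested genes, 61 were differentially expressed genes (DEGs) between the exposed lungs and the OVA-challenged controls, 48 higher and 13 lower. DEGs had an adjusted p below 0.05 in limma and an absolute log2 fold change above 0.58. They made up 0.267% of the tested genes, 0.210% in the rising and 0.0569% in the falling direction, and 2341 genes had an unadjusted p below 0.05. Without any effect, a share of 0.05 of the tested genes would fall below that p. The largest rises were in Orm1 and Orm2, acute phase proteins, Gpnmb, a membrane glycoprotein of lysosome-rich macrophages, Hmox1, which encodes heme oxygenase 1, Cd177, a surface protein of neutrophils, and Clec4d, a C-type lectin receptor of myeloid cells. The largest falls were in Hbb-b2, a beta globin, Igfbp3, a binding protein of insulin-like growth factors, and Hopx, a transcription cofactor of alveolar type 1 cells.

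**Figure D1:**
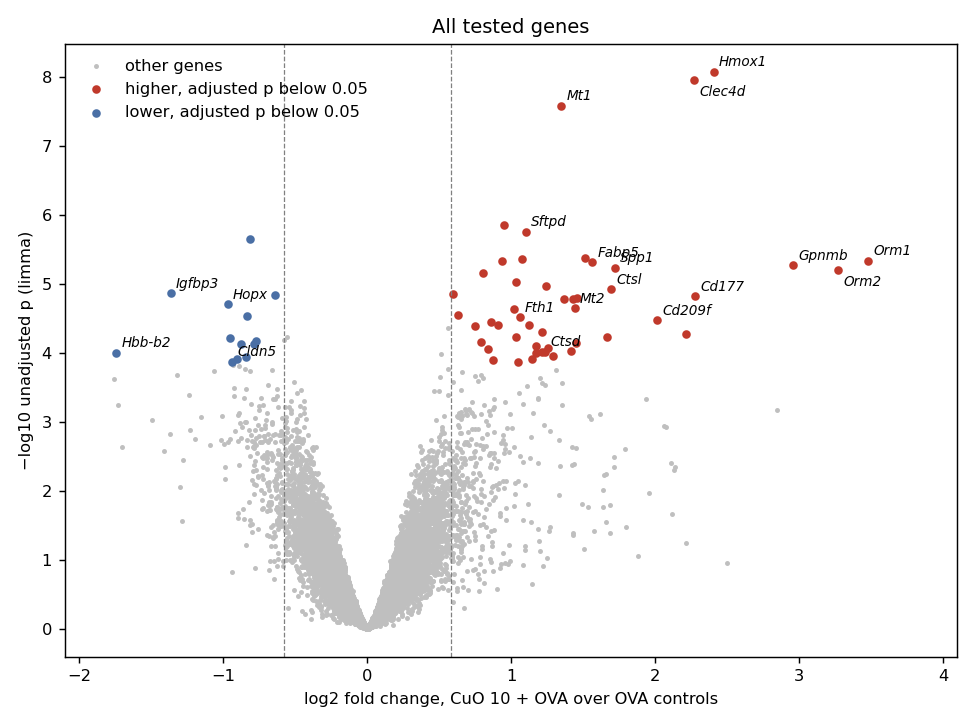
Each point is 1 of 22851 genes, with the log2 fold change of CuO 10 + OVA over the OVA controls on the x axis and minus log10 of the unadjusted limma p on the y axis. The dashed lines stand at a log2 fold change of -0.58 and 0.58. The 48 higher DEGs reach 3.48 in Orm1, and the 13 lower DEGs reach -1.75 in Hbb-b2.

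The count of DEGs depended on the batch terms and on single samples. It was 344 (215 higher, 129 lower) with the array as a random block, 154 (104 higher, 50 lower) with dye, slide and position, and 171 (108 higher, 63 lower) with controls of the same slides, sharing 43, 36 and 54 genes with the 61. Without the exposed replicate 1, 2 or 3 it was 19, 4 or 32, without the control replicates 1 or 4 it was 20 or 5, and without any other single control it was between 42 and 73. Of 35 named DEGs, 11, 4 and 18 kept their call without the exposed replicates 1, 2 and 3, and 9 and 3 did so without the control replicates 1 and 4. Hmox1, Clec4d and Mt1 passed in all 11 fits with a sample left out. Replicate 2 had the highest value of the exposed samples in 41 of the 48 risen genes and replicate 3 the lowest in 40. The part of array, dye or pool in that order was not tested.

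Samples were hybridised in pairs on 2-colour arrays, 1 in Cy3 and 1 in Cy5. No exposed sample shared an array with an OVA control, so the log2 fold changes, fitted with dye and array as terms, were linked through other samples. Values by sample are therefore given separately, as log2 intensities with dye, slide and array position removed. In all 61 DEGs the difference between the group means of these values was smaller than the fitted log2 fold change. Hmox1, for example, had means of 12.92 and 11.46 and a fitted log2 fold change of 2.41. DEGs were chosen by the fit, so the fitted sizes may be too large. On that scale the 3 exposed samples did not overlap with the 8 controls in 48 of the 61 DEGs, against 7.61% of all tested genes (39 of the rises against 4.19%). With no term removed this held for 42 DEGs, against 4.09% of all genes. Within slides, where each exposed sample was set against the controls of its own slide, 58 DEGs differed in the direction of the fit on 3 of 3 slides, against 27.2% of all genes. DEGs were chosen for differences between these same samples, so their shares follow in part from that choice and are not separate evidence. Lack of overlap was also a condition for naming the largest rises and falls. The exposed samples had median foreground intensities of 101 to 177.5 and 60.1% to 67.9% of spots well above background, and the controls had 66.5 to 189 and 50.4% to 68.5%. Correlations over genes were 0.994 to 0.997 between exposed samples and 0.981 to 0.997 between controls.

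The metallothionein genes Mt1 and Mt2 rose. Their promoters and that of the lysosomal protease gene Ctsd are shown because these genes respond to metal and lysosomal load, as the 250 bases before the RefSeq transcript start, 5′ to 3′ on the gene's strand in GRCm38.p6. In Mt1 (chr8:94178839-94179088, plus strand) and Mt2 (chr8:94172368-94172617, plus strand) capitals mark the metal response element core, TGCACNC or TGCGCNC on either strand. In Ctsd (chr7:142387828-142388077, minus strand) capitals mark the E-box CACGTG, the core of the sites of lysosomal gene regulators.
Mt1 promoter: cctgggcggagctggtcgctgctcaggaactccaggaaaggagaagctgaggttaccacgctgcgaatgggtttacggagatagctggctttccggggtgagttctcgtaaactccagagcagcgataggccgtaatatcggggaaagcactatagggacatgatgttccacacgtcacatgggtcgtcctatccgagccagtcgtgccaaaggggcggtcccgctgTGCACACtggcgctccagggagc
Mt2 promoter: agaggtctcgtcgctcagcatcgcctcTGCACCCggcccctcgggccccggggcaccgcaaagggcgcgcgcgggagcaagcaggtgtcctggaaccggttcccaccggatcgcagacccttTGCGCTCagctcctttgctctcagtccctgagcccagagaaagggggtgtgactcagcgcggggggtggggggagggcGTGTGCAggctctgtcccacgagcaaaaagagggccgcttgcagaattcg
Ctsd promoter: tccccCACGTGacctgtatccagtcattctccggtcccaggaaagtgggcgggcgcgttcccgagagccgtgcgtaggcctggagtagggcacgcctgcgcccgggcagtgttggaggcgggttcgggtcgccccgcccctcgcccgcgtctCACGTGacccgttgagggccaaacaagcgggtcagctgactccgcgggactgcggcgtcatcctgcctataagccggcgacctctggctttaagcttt
The Mt1 window held 1 metal response element core, the Mt2 window 3, and the Ctsd window 2 E-boxes. The Ctsd window also held the metal response element core, which is not in capitals. Of the 48 risen genes, 36 had a RefSeq window, and 10 of their 42 windows (23.8%) held the metal response element core, against 21.4% of 32851 windows of all genes. The E-box was in 2 of the 42 windows (4.8%), those of Ctsd and Ctsl, against 6.0% of all windows.

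Of 20 measured genes of metallothioneins and copper handling, Mt1 and Mt2 rose (10%, against 0.210% of all genes) and 0 fell. This and the other gene lists were chosen with earlier results of these data known, so such shares are not a test. Mt1 measured 11.49, 11.62 and 10.96 in exposed replicates 1, 2 and 3 (mean 11.36 ± 0.35, SD, n = 3) and 10.17 to 10.86, with a median of 10.58, in the 8 controls. All 3 exposed samples lay above all controls, and the fitted log2 fold change was 1.35 ± 0.16 (SE; adjusted p = 0.000195). Mt2 measured 13.78, 14.25 and 13.07 against 12.40 to 13.49 with a median of 13.04. Its replicate 3 lay at the controls' level, so the groups overlapped, with a log2 fold change of 1.44 ± 0.27 (adjusted p = 0.0186). The sequences of both genes are alike, and cross-hybridisation of their probes was not tested. Among the members that did not pass, Mt3 had a log2 fold change of -0.10 ± 0.27 (adjusted p = 0.95), and the copper-exporting ATPase genes Atp7a and Atp7b had -0.10 ± 0.12 and 0.07 ± 0.17 (adjusted p = 0.86 and 0.94). The median over the list was 0.09, against 0.00350 over all tested genes.

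Of 23 measured antioxidant targets of the transcription factor Nrf2, the iron and heme genes Hmox1 and Fth1 rose (8.70%, against 0.210% of all genes), and 0 fell. Hmox1 measured 13.15, 13.29 and 12.32 in the exposed samples and 10.84 to 11.83, median 11.59, in the controls. The groups did not overlap, and the log2 fold change was 2.41 ± 0.27 (adjusted p = 0.000123). Set against the controls of its own slide, each exposed sample was higher, by 1.36, 1.74 and 0.54. Fth1, the ferritin heavy chain, measured 16.73, 16.79 and 16.71 against 15.92 to 16.36, median 16.18. Its exposed samples differed little among themselves, and it rose by 1.06 ± 0.20 (adjusted p = 0.0221). The call of Fth1 held in 4 of 8 alternatives of the processing and in 6 of 11 fits with a sample left out, with log2 fold changes down to 0.55. The classic Nrf2 targets Nqo1, Gclc, Gclm and Srxn1 had log2 fold changes of -0.34 ± 0.20, 0.41 ± 0.18, 0.27 ± 0.14 and 0.38 ± 0.17, with adjusted p = 0.60, 0.43, 0.54 and 0.44. The list's median was 0.26.

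Genes of macrophage lipid handling and lysosomes had 5 of 18 measured members higher and 0 lower, namely Gpnmb, Fabp5, Ctsb, Ctsd and Lgals3. That share, 27.8%, stood against 0.210% over all genes, and the list's median was 0.76. The list was chosen with earlier results of these data known, so this share is described only. Gpnmb measured 10.72, 11.11 and 10.78 against 8.47 to 8.96, median 8.60. The exposed values were far above every control, with a log2 fold change of 2.96 ± 0.50 (adjusted p = 0.0100). Fabp5, a fatty acid binding protein, measured 14.86, 15.41 and 14.61 against 13.75 to 14.25, and rose by 1.56 ± 0.26 (adjusted p = 0.00996). Of the lysosomal cathepsins, Ctsl, which was not on the list, measured 14.92, 15.20 and 14.57 against 13.41 to 14.11 and rose by 1.69 ± 0.30 (adjusted p = 0.0148). Ctsb measured 15.84, 16.11 and 15.80 against 14.96 to 15.60, a rise of 1.26 ± 0.26 (adjusted p = 0.0376). Ctsd, whose promoter is printed above, measured 15.15, 15.26 and 15.33 against 14.32 to 14.53, a rise of 1.24 ± 0.26 (adjusted p = 0.0396). In each of these cathepsins all exposed samples stood above all controls. Lgals3, which encodes galectin 3, rose by 0.84 ± 0.18 (adjusted p = 0.0386), but its groups overlapped, and on slide 3 the difference between the exposed sample and the control was -0.07. Its call held in 4 of 8 alternatives and in 6 of 11 fits with a sample left out. The macrophage genes Trem2 and Cd68 had log2 fold changes of 0.94 ± 0.26 and 0.79 ± 0.28 (adjusted p = 0.15 and 0.28), and Ctsk and Atp6v0d2 had -0.09 ± 0.22 and 0.69 ± 0.20 (adjusted p = 0.95 and 0.17). In these bulk lung samples, more cells of a type and more RNA per cell cannot be told apart.

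Alveolar macrophage markers mostly had negative values. Of 9 alveolar macrophage markers 0 passed and 8 had negative log2 fold changes, with a median of -0.50. Their mean level was 10.78 to 11.19 in the exposed samples and 11.54 to 11.83 in the controls, without overlap. The means of several other lists did not overlap either. Among these were Nrf2 targets (11.28 to 11.38 against 11.13 to 11.23) and p53 targets (9.34 to 9.46 against 9.20 to 9.30), both higher in the exposed samples. The scavenger receptor gene Marco measured 9.41, 8.43 and 8.68 against 8.98 to 10.42 (log2 fold change -0.94 ± 0.63, adjusted p = 0.66). Of 8 markers of monocytes and interstitial macrophages 0 passed, with a median of 0.27. The part of the cell mixture in the lysosomal genes was not tested.

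Of 20 measured acute phase genes, Orm1 and Orm2 rose (10%, against 0.210% of all genes) and 0 fell. Positive log2 fold changes were found in 19, against 50.8% of all genes, and the median was 0.66. Orm1 measured 9.94, 11.06 and 9.08 against 6.99 to 7.57, median 7.17. Orm2 lay between 8.37 in replicate 3 and 10.26 in replicate 2 (mean 9.21), against 6.38 to 7.11, median 6.65. Both genes were higher in every exposed sample than in every control, with wide spread among the exposed (SD 0.99 and 0.97, n = 3). The log2 fold changes were 3.48 ± 0.59 and 3.27 ± 0.56 (adjusted p = 0.00996 and 0.0101), and since the genes are close copies their probes may not be independent. The serum amyloid A genes Saa1, Saa2, Saa3 and Saa4 had log2 fold changes of 1.66 ± 0.55, 0.94 ± 0.51, 1.96 ± 0.71 and 0.63 ± 0.18, with adjusted p = 0.24, 0.55, 0.30 and 0.16. Of these, Saa3 measured 14.94, 16.32 and 14.17 against 13.38 to 14.92, so its replicate 3 lay within the controls.

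Neutrophil genes had 3 of 29 measured members higher (10.3%, against 0.210% of all genes), 0 lower and 25 positive (50.8% of all genes were positive), with a median of 0.65. Cd177 measured 8.70, 8.86 and 8.31 against 6.38 to 6.91, median 6.73, and rose by 2.28 ± 0.42 (adjusted p = 0.0148). Clec4d measured 10.72, 11.39 and 10.14 against 8.68 to 9.13, median 8.85, and rose by 2.27 ± 0.26 (adjusted p = 0.000123). In both genes the groups stood well apart. Cxcr1, a receptor for neutrophil-attracting chemokines, rose by 1.05 ± 0.23 (adjusted p = 0.0467), with overlapping groups and only 4 of 8 controls well above background. Its call held in 1 of 11 fits with a sample left out. Other neutrophil genes did not pass. S100a8 measured 12.67, 13.05 and 12.00 against 11.46 to 12.26 (0.78 ± 0.58, adjusted p = 0.71), S100a9 had 0.63 ± 0.57 (adjusted p = 0.79), Cxcr2 had 0.86 ± 0.44 (adjusted p = 0.52) and Csf3r had -0.24 ± 0.17 (adjusted p = 0.70). The mean level over the list was 8.93 to 9.57 in the exposed samples and 8.58 to 8.85 in the controls. Ly6g had no value.

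Chemokine genes had 0 called members among 10 ligands and growth factors of the CXCR2 axis (median 0.40) and 0 among 14 monocyte and macrophage chemokines (median 0.89, 11 positive). Ccl2, the main attractant of monocytes, measured 12.64, 13.54 and 11.90 against 10.73 to 12.59, median 11.35. Replicate 3 lay within the controls, and the log2 fold change was 2.06 ± 0.56 (adjusted p = 0.14). Ccl7 had 2.08 ± 0.56 (adjusted p = 0.14), Ccl3 1.56 ± 0.41 (adjusted p = 0.12) and Ccl4 1.26 ± 0.57 (adjusted p = 0.45). Ccl2 and Ccl7 passed in 2 alternatives, with log2 fold changes of 1.60 and 1.24 with the array as a random block (adjusted p = 0.00442 and 0.0369) and 2.03 and 2.06 with controls of the same slides only (adjusted p = 0.0205 and 0.0292). They did not pass with dye, slide and position, at 1.19 and 1.11 (adjusted p = 0.12 and 0.21), nor in the other alternatives. The neutrophil attractants Cxcl1, Cxcl2 and Cxcl5 had 1.43 ± 0.45, 1.19 ± 0.29 and 1.49 ± 0.57, with adjusted p = 0.21, 0.096 and 0.34. Tnf had 0.75 ± 0.30 (adjusted p = 0.37).

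Among genes of the allergic response, 1 passed, in the list of 14 eotaxin and eosinophil genes (7.14%, against 0.210% of all genes). Prg2, the major basic protein of eosinophil granules, had a fitted log2 fold change of 1.29 ± 0.28 (adjusted p = 0.0420). Its values were 8.54, 9.04 and 7.91 in the exposed samples and 7.67 to 8.84, median 8.24, in the controls. The groups overlapped, and within slides the differences were 0.32, 1.33 and -0.53, so the size of the fitted rise was not visible in the values by sample. The call held in 3 of 8 alternatives of the processing and in 6 of 11 fits with a sample left out. The other 13 genes of eotaxins and eosinophils did not pass (list median -0.03), with Ccr3 at 0.37 ± 0.36 and Siglecf at 0.00 ± 0.18. For 2 eotaxins the fit and the values by sample differed. Ccl24 had a fitted log2 fold change of -0.03 ± 0.48 (adjusted p = 0.99), but its exposed samples, at 11.46, 11.97 and 10.85, lay below all controls, at 12.12 to 13.40, with within-slide differences of -1.27, -0.62 and -2.25. Ccl11 had a fitted 0.63 ± 0.29 (adjusted p = 0.46), while it measured 9.68, 9.74 and 9.28 against 9.40 to 10.19, and its within-slide differences were -0.12, -0.04 and -0.50. Of 15 type 2 cytokines, alarmins and CCR4 ligands 0 passed (median 0.10). Il4 had 0.18 ± 0.36 (adjusted p = 0.92), Ccl17 0.17 and Il33 0.70 ± 0.24 (adjusted p = 0.26), and Il13 was not well above background in any sample of either group. All 14 goblet cell genes had positive log2 fold changes, with a median of 0.74, and 0 passed. Among these were the mucin genes Muc5ac at 1.08 ± 0.67 (adjusted p = 0.62; -0.34 without the control replicate 4) and Muc5b at 0.99 ± 0.58 (adjusted p = 0.59), and the goblet cell product Clca1 at 2.50 (adjusted p = 0.60).

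Among matrix and wound genes, Spp1 and Mmp3 rose, 2 of 20 measured (10%, against 0.210% of all genes), and 0 fell. Spp1, which encodes osteopontin, measured 14.30, 14.76 and 13.44 against 12.34 to 13.81, median 13.16. Replicate 3 lay within the controls, and the log2 fold change was 1.72 ± 0.29 (adjusted p = 0.0101). Mmp3, a matrix protease, rose by 1.14 ± 0.25 (adjusted p = 0.0452), also with overlap, and its call held in 5 of 8 alternatives and in 2 of 11 fits with a sample left out. Timp1, Tnc and Fn1 had log2 fold changes of 0.16 ± 0.51, 0.19 ± 0.23 and 0.06 ± 0.21.

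Other risen genes belonged to no list. Cd209f, a C-type lectin of the DC-SIGN family, measured 9.68, 9.30 and 9.04 against 7.74 to 8.47 and rose by 2.01 ± 0.39 (adjusted p = 0.0237). Htr2b, a serotonin receptor, measured 8.05, 8.25 and 7.71 against 6.55 to 7.06 and rose by 1.45 ± 0.27 (adjusted p = 0.0148). Clu, the extracellular chaperone clusterin, measured 14.69, 14.51 and 14.53 against 13.38 to 13.68 and rose by 1.41 ± 0.30 (adjusted p = 0.0396). In these genes, too, every exposed sample was above every control, which the rule for naming them required. The same held for Hal, which encodes histidine ammonia lyase (1.67 ± 0.34), the ubiquitin ligase gene Rnf128 (1.51 ± 0.25), Fam20c, a kinase of the secretory pathway (1.45 ± 0.30), and Dmkn, a secreted epithelial protein (1.36 ± 0.25). Their adjusted p-values were 0.0317, 0.00996, 0.0341 and 0.0148. Of 8 alveolar type 2 markers, Sftpd, the collectin surfactant protein D, rose (12.5%, against 0.210% of all genes). It went from 16.11 to 16.72 in the controls to 16.99, 17.22 and 17.31 (1.1 ± 0.17, adjusted p = 0.00797). The surfactant genes Sftpc, Sftpa1 and Sftpb had 0.37 ± 0.29, 0.25 ± 0.20 and 0.05 ± 0.19, with adjusted p of 0.72 and above. The remaining risen genes, from Dmbt1 at 2.22 ± 0.45 to Creg1 at 0.59 ± 0.11, were not covered by the naming rule. Chosen after their values were seen, the myeloid genes among them included Cd14, a co-receptor for bacterial lipopolysaccharide, with 12.06, 12.47 and 11.71 against 10.81 to 11.46 (1.21 ± 0.26, adjusted p = 0.0396). Slc11a1, a metal transporter of the phagosome, measured 10.29, 10.59 and 9.80 against 9.36 to 9.73 (1.12 ± 0.22, adjusted p = 0.0258), and Havcr2, the receptor TIM-3, 9.06, 9.41 and 8.82 against 8.25 to 8.52 (0.95 ± 0.15, adjusted p = 0.0079). These 3 genes also stood above every control. Awat1 was among the 48 risen DEGs but was not well above background in any control, so no fold is given.

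**Figure D2:**
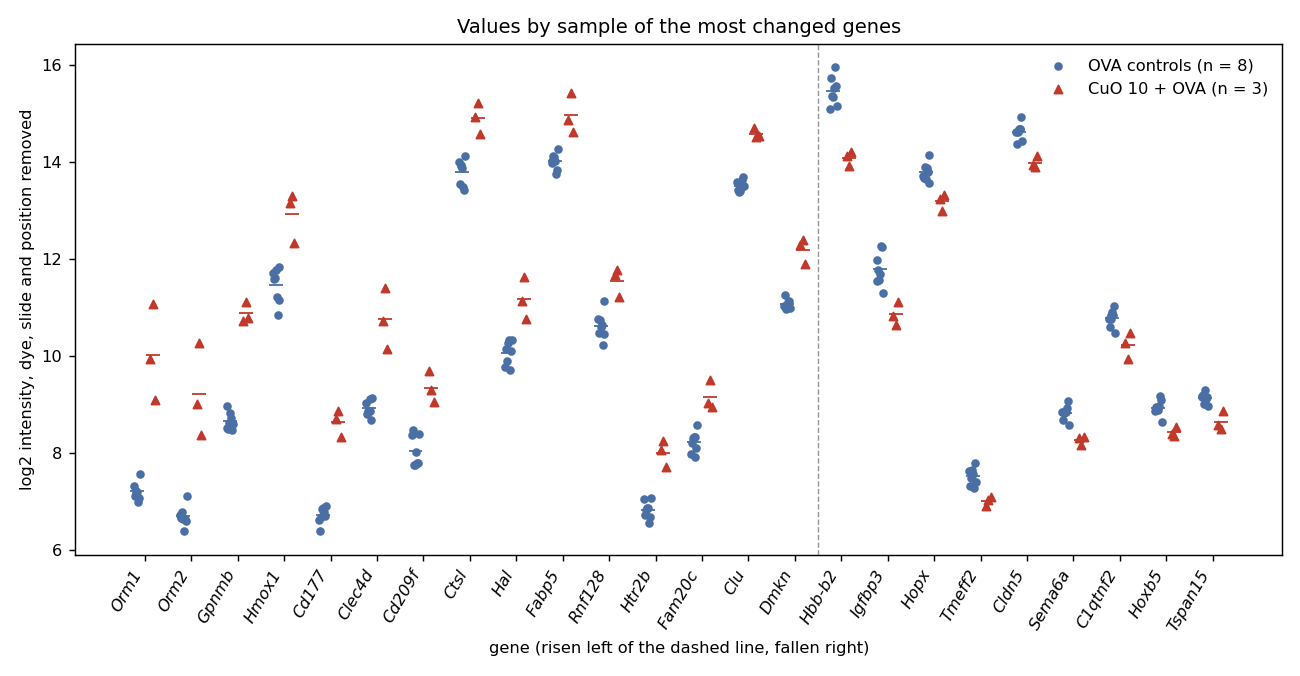
Log2 intensity, with dye, slide and array position removed, of the 15 largest rises and 9 falls without overlap, where triangles are the 3 exposed samples, circles the 8 OVA controls and lines the group means. All triangles of a gene stand on 1 side of its circles, from a gap of 10.72 against 8.96 in Gpnmb to nearly equal values of 10.464 against 10.465 in C1qtnf2.

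Of the 13 falls, 9 had exposed samples below all controls (3.42% of all tested genes were lower without overlap). Hbb-b2 measured 14.12, 13.91 and 14.21 against 15.08 to 15.95, median 15.44, and fell by 1.75 on the log2 scale (SE 0.37, adjusted p = 0.0396). Its sequence is nearly that of Hbb-bt, which had -1.73 ± 0.43 (adjusted p = 0.11), so the reading of single globin probes is uncertain. All 7 measured erythrocyte markers had negative log2 fold changes (median -1.32), and 0 passed. Their mean level was 10.72 to 11.05 in the exposed samples and 11.53 to 12.13 in the controls, without overlap, which also held for several other lists. Hba-a1 and Hba-a2 had -1.49 ± 0.39 and -1.28 ± 0.39, and Alas2, the heme synthesis enzyme of red cells, -1.76 ± 0.40 (adjusted p = 0.0665). The part of residual blood in these values was not tested.

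Among the markers of the alveolar wall, Cldn5, an endothelial tight junction protein, measured 13.93, 13.89 and 14.11 against 14.36 to 14.92 and fell by 0.94 (SE 0.21, adjusted p = 0.0467). It was the 1 called member of 8 endothelial markers (12.5%, against 0.0569% of all genes that fell). All 8 were negative (median -0.53), with Cdh5, the endothelial cadherin, at -0.89 ± 0.20 (adjusted p = 0.0522). The mean level of these markers was 11.63 to 11.83 in the exposed samples and 11.94 to 12.31 in the controls. Of 7 alveolar type 1 markers, Hopx fell (14.3%, against 0.0569% of all genes). It measured 13.23, 12.99 and 13.32 against 13.55 to 14.13 (-0.97 ± 0.18, adjusted p = 0.0171). The other alveolar type 1 markers Ager, Aqp5, Cav1 and Pdpn had -0.23 ± 0.22, -0.30 ± 0.15, -0.59 ± 0.16 and 0.20 ± 0.15. Igfbp3 measured 10.82, 10.63 and 11.11 against 11.29 to 12.27 and fell by 1.36 (SE 0.25, adjusted p = 0.0148). The remaining falls without overlap were Tmeff2 (-0.95), Sema6a (-0.91), a semaphorin, C1qtnf2 (-0.84), the homeobox gene Hoxb5 (-0.78) and the tetraspanin gene Tspan15 (-0.64). C1qtnf2 nearly touched the controls, at 10.464 in exposed replicate 3 against 10.465 in control replicate 8. Cldn5 and Sema6a were lost in most fits with a sample left out, keeping their calls in 1 and 2 of 11. The other 4 falls, Ackr4 (-0.87), B230208H11Rik (-0.83), 4833447I15Rik (-0.81) and Scp2d1 (-0.77), had overlapping groups.

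Lists without any called gene could still lie to 1 side. All 16 heat shock genes were positive (median 0.44), and Hspa1a, an inducible chaperone, measured 12.91, 12.87 and 12.90 against 10.18 to 11.92 (2.84 ± 0.72, adjusted p = 0.12). All 14 measured interferon-induced genes were positive (median 1.03), with Isg15 at 1.20 ± 0.65 (adjusted p = 0.55) and Ifit1 at 1.09 ± 0.58 (adjusted p = 0.54). All 25 mitotic genes were positive (median 0.50), with Mki67 at 0.50 ± 0.19 and Top2a at 0.61 ± 0.19 (adjusted p = 0.34 and 0.20). Members of 1 list are not independent measurements. The medians of IL-6 family and STAT3 genes (0.12), IL-1, TNF and NF-kB genes (0.23), p53 targets (0.12), resistin-like proteins, chitinases and arginase (0.46), cholesterol synthesis (-0.02) and clock genes (-0.19) came with 0 calls each. The same was true of markers of T cells (0.02), B and plasma cells (0.13), dendritic cells (-0.10), mast cells and basophils (-0.14), club cells (-0.08), ciliated cells (0.19), fibroblasts and smooth muscle (0.02), cardiomyocytes (-0.11), thymus and lymph node (0.21), and mesothelium and fat (-0.17).

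**Figure D3:**
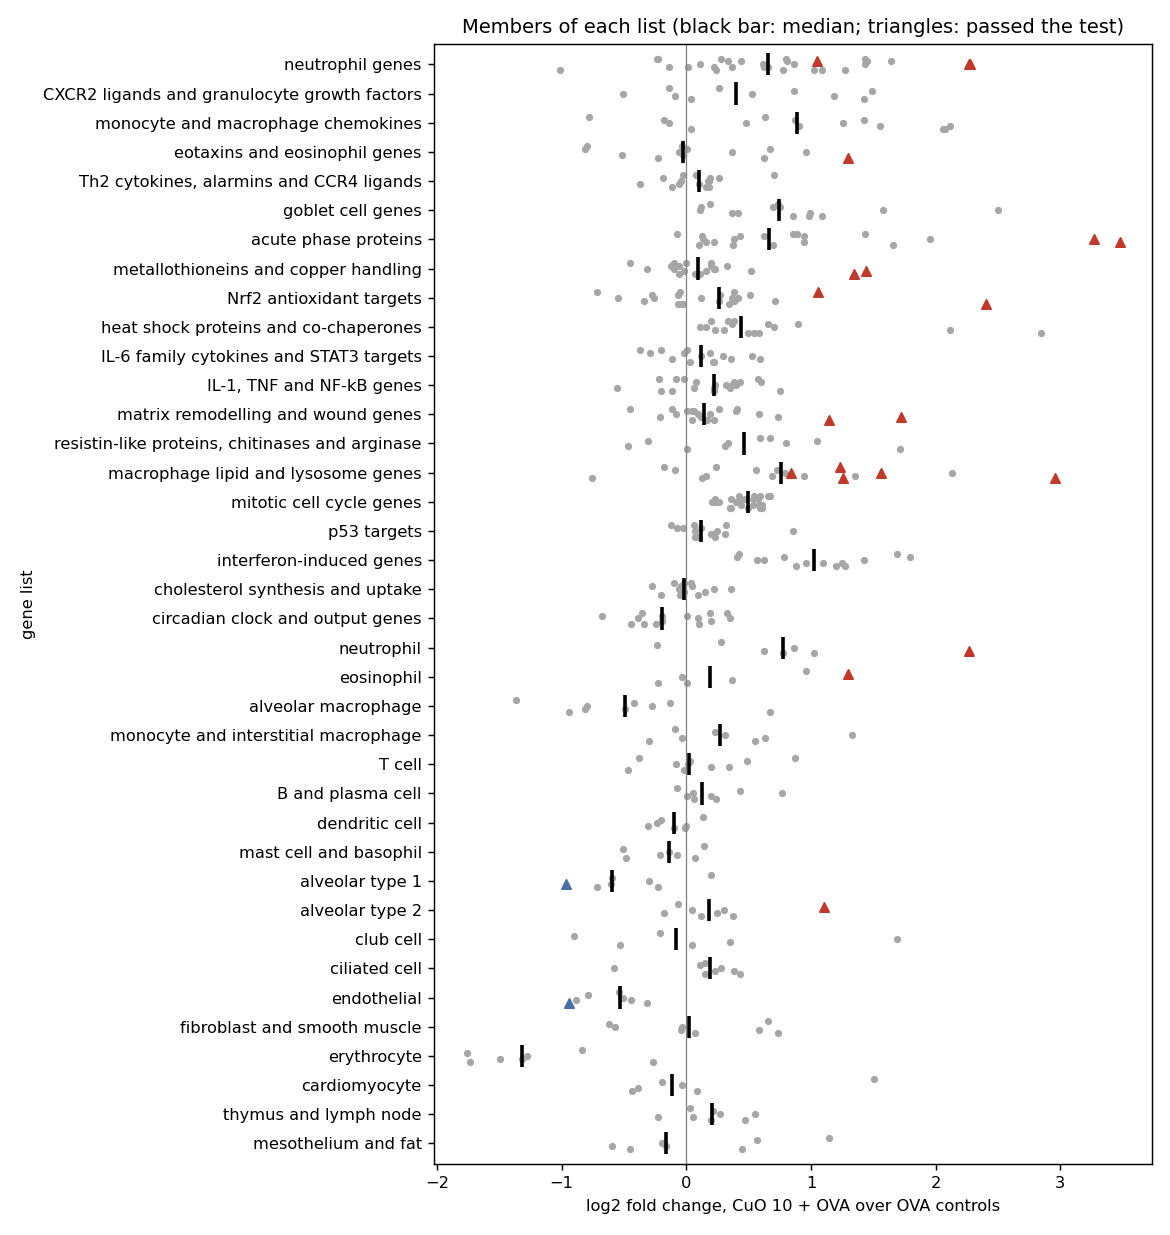
Each row is a gene list and each point a measured member at its log2 fold change of CuO 10 + OVA over the OVA controls, with triangles for DEGs and black bars for medians. The macrophage lipid and lysosome list holds 5 DEGs around its median of 0.76, and all 7 erythrocyte markers lie below 0.

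At 2.5 μg/mouse of core CuO with OVA, the comparison with the OVA controls rested on 1 sample, and no count of genes is given. The other 2 samples were alone on their arrays and were absorbed by the array terms. At 40 μg/mouse, 363 genes passed (1.59%). Of the 61 DEGs at 10 μg/mouse, 35 passed in the same direction at 40 μg/mouse. Both comparisons share the OVA controls, so their values are set side by side only. The log2 fold changes at 10 and 40 μg/mouse were 2.41 and 4.03 in Hmox1, 2.27 and 3.78 in Clec4d, and 1.44 and 2.65 in Mt2, and 1.69 and 1.73 in Ctsl, 2.96 and 2.90 in Gpnmb, and 1.56 and 1.66 in Fabp5.

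Both doses were then compared directly. There were 45 genes that differed (0.197%), 16 higher (0.0700%) and 29 lower (0.127%) at 40 μg/mouse. Of the 61 DEGs against the controls, Hmox1 and Pla2g2d, a secreted phospholipase named here after its values were seen, were among them. Hmox1 measured 13.74, 13.97 and 13.54 at 40 μg/mouse against 13.15, 13.29 and 12.32 at 10 μg/mouse, a difference of 1.62 ± 0.34 (adjusted p = 0.0446). Pla2g2d went the other way, with 6.55, 6.92 and 6.89 against 8.11, 8.17 and 8.17 (-1.87 ± 0.31, adjusted p = 0.00883), and was 1.17 above the controls at 10 and -0.70 from them at 40 μg/mouse (adjusted p = 0.29). Clec4d was 1.51 higher at 40 μg/mouse (adjusted p = 0.0501). For Ctsl and Gpnmb the 95% intervals of the difference between the doses were -0.73 to 0.81 and -1.34 to 1.22.

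The other large differences between the doses were in genes that had not passed against the OVA controls at 10 μg/mouse. Eln, which encodes elastin, measured 11.19, 10.59 and 10.46 at 40 μg/mouse against 8.85, 9.40 and 9.09 (2.01 ± 0.42, adjusted p = 0.0446), and the matrix gene Tnc measured 8.09, 8.42 and 7.96 against 7.13, 7.56 and 6.96 (1.58 ± 0.29, adjusted p = 0.0222). The eosinophil-associated ribonuclease genes Ear2 and Ear1, which alveolar macrophages express, were lower at 40 μg/mouse, and as close copies they may share probes. Ear2 measured 10.96, 11.23 and 11.12 against 13.60, 13.03 and 13.54 (-2.49 ± 0.45, adjusted p = 0.0222), Ear1 differed by -2.40 ± 0.42 (adjusted p = 0.0185) and AY761185 by -2.36 ± 0.34 (adjusted p = 0.00423). Chosen after their values were seen, the T cell genes Cd2 (-1.69 ± 0.21, adjusted p = 0.000656), Cd3d (-1.61), Cd6 (-1.90) and Cd28 (-1.38) and the class II antigen presentation genes H2-Ab1 (-1.38), H2-Aa (-1.45) and H2-Eb1 (-1.49) were also lower at 40 μg/mouse. In the 10 μg/mouse samples these 7 genes lay between -0.08 and 0.41 from the OVA controls. Of the 10 measured members of the T cell marker list, only Cd2 and Cd3d passed between the doses, while 0.127% of all genes were lower. The count of 45 fell to 3 and 22 without the replicates 2 and 3 at 40 μg/mouse and to 20 without the replicate 1 at 10 μg/mouse. It fell to 11 with samples of the same slides only (1 higher, 10 lower), but was 120 with loess (52 higher, 68 lower), 350 with the array as a random block (82 higher, 268 lower) and 347 with dye, slide and position (82 higher, 265 lower).

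**Figure D4:**
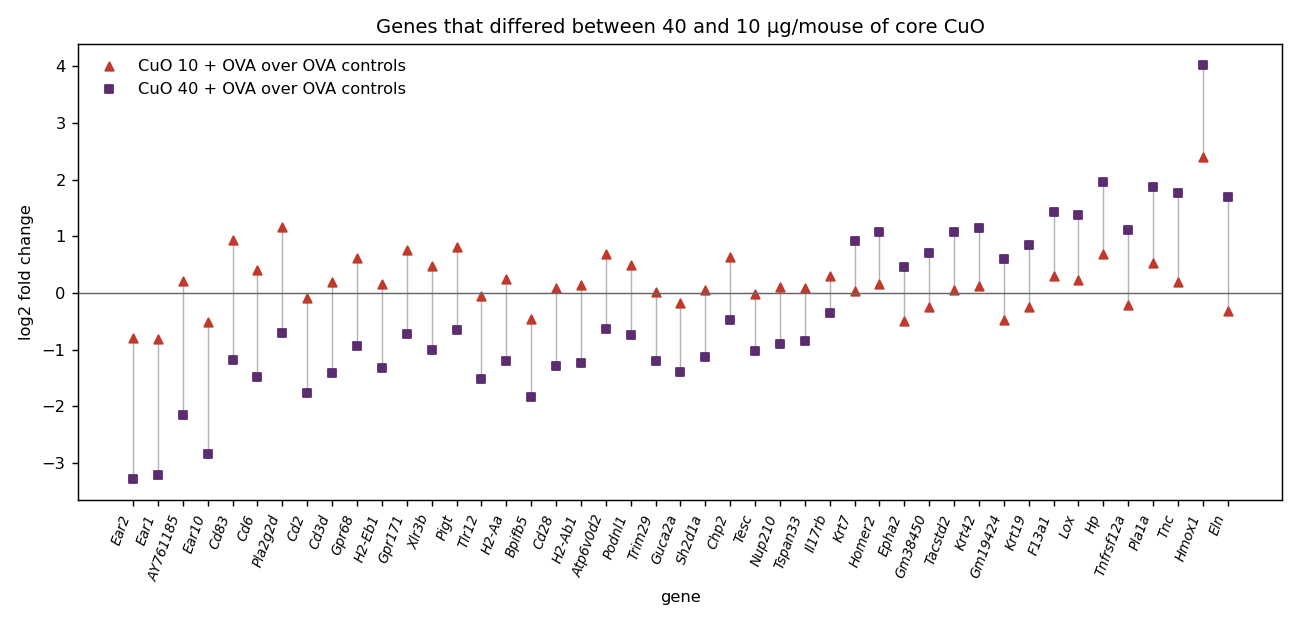
Log2 fold changes over the OVA controls at 10 μg/mouse (triangles) and 40 μg/mouse (squares) of core CuO for the 45 genes that differed between the doses, ordered by that difference. Ear2 has -0.80 and -3.29, Hmox1 2.41 and 4.03, and Eln -0.32 and 1.69.

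With a PBS challenge, core CuO at 10 μg/mouse changed 824 genes against PBS-challenged controls (3.61%), and 37 of the 61 DEGs passed in the same direction there. The difference between the effects of CuO with OVA and with PBS was tested as an interaction, and 0 genes passed, with 1157 at an unadjusted p below 0.05 and a smallest adjusted p of 0.0754. The number 1157 is near the share of 0.05 of all tested genes that arises without any effect. Other batch terms gave 191 genes with the array as a random block (16 higher and 175 lower with OVA) and 192 with dye, slide and position (7 higher, 185 lower), and loess gave 18, all lower with OVA. Without the control replicates OVA 1, 3, 4 or 6 it gave 14, 19, 2 or 8 genes, without PBS 2 or 7 it gave 19 or 1, and without the exposed replicate 1 it gave 1. Of 35 named DEGs, 21 had a 95% interval of that difference that held 0. The acute phase gene Orm1 had a log2 fold change of 3.48 with OVA and 5.63 with PBS (difference -2.15, interval -3.92 to -0.39), and Hmox1 2.41 and 3.31 (-0.91, interval -1.73 to -0.08). Spp1 had 1.72 and 3.54 (-1.82, interval -2.71 to -0.94). In the other direction, Ctsl had 1.69 with OVA and 0.30 with PBS (1.39, interval 0.47 to 2.31), and Htr2b 1.45 and 0.11 (1.34, interval 0.54 to 2.15). These intervals are for single genes and are not adjusted, and the genes were chosen for values in the same exposed samples and OVA controls. OVA itself had changed Spp1 and Hmox1 in the controls, with log2 fold changes over PBS-challenged controls of 2.50 and 1.21. Orm1, Ctsl and Htr2b had 0.54, 0.44 and 0.24 there (limma adjusted p = 0.52, 0.24 and 0.54). Of other DEGs, Mt1 had 0.81, Clec4d 0.02 and Gpnmb 0.15. The part of these values in the differences between the challenges was not tested.

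For CuO COOH at 10 μg/mouse with OVA, 146 genes passed against the OVA controls (0.639%), while the direct comparison of CuO COOH with core CuO gave 0 genes, with 847 at an unadjusted p below 0.05. The number 847 is below the share of 0.05 of all tested genes that arises without any effect. Of the named DEGs, 23 of 35 had intervals that held 0. At this equal mass, with unequal copper, CuO COOH differed from core CuO by -1.03 (interval -1.72 to -0.34) in Hmox1, by -0.64 (-1.05 to -0.22) in Mt1 and by -1.38 (-2.07 to -0.68) in Prg2. The Prg2 difference rests on the fitted rise with core CuO, whose size was not visible in the values by sample. For Clec4d and Orm1 the differences were 0.33 (-0.33 to 0.99) and -0.13 (-1.60 to 1.34). These intervals are not adjusted, and the DEGs were chosen for their values in the same core CuO samples. Of the 48 rises, 43 were lower with CuO COOH, which that choice alone can produce. The smallest adjusted p of the comparison was 1.00, and the intervals of the named DEGs had a median width of 1.32 on the log2 scale, so the missed threshold does not show that both materials acted alike.

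**Figure D5:**
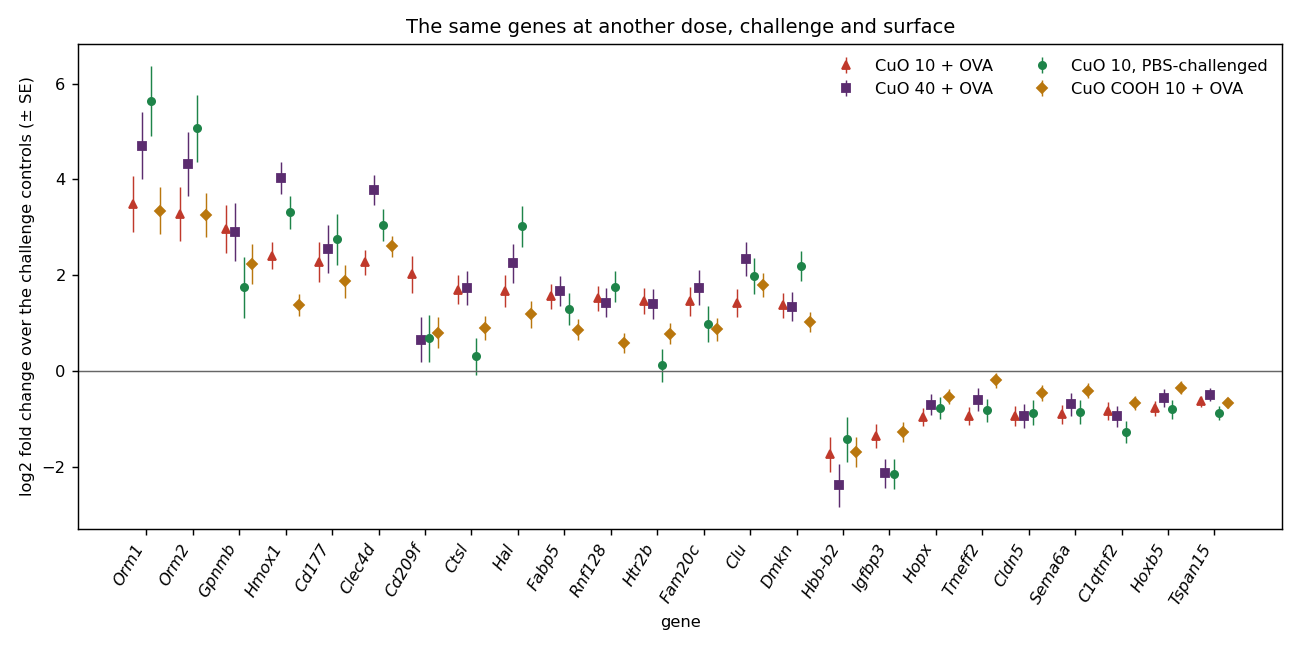
Log2 fold changes ± SE over the controls of the same challenge for the 24 genes with the largest changes without overlap, in CuO 10 + OVA, CuO 40 + OVA, CuO 10 with PBS and CuO COOH 10 + OVA. Hmox1 is highest at 40 μg/mouse with 4.03, Orm1 with PBS with 5.63, and Cd209f at 10 μg/mouse with OVA with 2.01.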

How the data were processed

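Per the labels and the methods, the authors hybridised lung RNA (RNA integrity number above 8, pools of 2 RNA samples) on 2-colour Agilent mouse arrays and deposited the scanner output, made with Feature Extraction 12.0.2.2 per the file headers. The deposited intensity values are median foreground intensities of each channel, and a second table from the authors, with log2 values already normalized, served as an alternative. Doses are given in μg/mouse as in the study, while 1 label text has mg/mouse. All 89 samples in 26 groups, on 46 arrays and 6 slides, were grouped from the labels.

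Intensities without background subtraction were taken to log2 and quantile normalized. After 3671 control spots and all outlier-marked spots had been removed, the rest were averaged to 56605 probes. The 32994 probes with a RefSeq gene were averaged to 22911 genes, of which 22851 had a value in every sample. Of the 61 DEGs, 49 had 1 probe, and in none did probes differ in direction. One limma 3.58.1 model in R 4.3.3 held the 26 groups, dye and hybridisation, with Benjamini-Hochberg adjustment over the 22851 genes and 17 residual degrees of freedom. Python 3.11.15 with matplotlib 3.10.9 drew the figures. On simulated data for the comparison with the OVA controls, the fit recovered 88 of 100 genes with a simulated log2 change of 1 and 99 of 100 with 1.5. There were 9 false calls among the unchanged genes of the 22851. The simulated noise was independent between genes and samples and came from the same model. Deviations that many genes share in a sample or array were therefore absent, and the real error rates can be higher. The number of arrays limits the precision; the median standard error was 0.16.

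Named genes were the 15 largest rises and up to 10 falls without overlap, every called member of a gene list, up to 4 uncalled members in list order, and genes the study names; for other comparisons, the 3 largest rises and falls. The 38 gene lists, their members and the comparisons were chosen with earlier results of these data known. As alternatives, the background was corrected by normexp (offset 50), arrays were loess normalized, dim probes were dropped, or the value table was used. The batch terms were replaced by a random array block, by slide and position with dye, or by a replicate block with dye. Controls were restricted to the slides of core CuO, and samples were left out 1 at a time.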

Additional observations from a re-analysis of the deposited data

Results flagged for a closer look

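Probes without a gene name were not part of the gene comparisons, and 10 of 23502 such probes (0.0425%) passed the thresholds between core CuO at 10 μg/mouse and the OVA controls, against 58 of all 56385 probes tested (0.103%). The largest rise was in probe A_55_P2150976, which was 1.78 ± 0.27 (SE) higher on the log2 scale, and the largest fall was in A_52_P33382, at -1.61 ± 0.27. Of the 10 probes, 4 were higher and 6 lower, and all were well above background in all 11 samples. No gene is named for them here.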

How the results depend on the processing

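The count of 61 DEGs was 60 with normexp, 64 with dim probes left out, 61 with the value table and 85 with loess. It was 344 with a random array block, 154 with dye, slide and array position, 149 with the replicate block and 171 with controls of the same slides, sharing 43, 36, 37 and 54 genes with the 61. Replicate numbers correlated at 0.29, 0.02 and -0.27, so they did not pair the samples. With a sample left out, the count ran from 4 to 73. The 45 genes between the doses became 120 with loess, 350 with the random block, 347 with slide and position, 388 with the replicate block and 11 with the same slides, and 3 to 42 with a sample left out. The interaction, 0 genes, gave 18 with loess, 1 with the value table, 191, 192 and 193 with the random block, slide and position, and replicate block, 7 with the same slides, and 0 to 19 with a sample left out. CuO COOH against core CuO, 0 genes, gave 1 with slide and position and 0 to 1 with a sample left out. Hmox1, Clec4d and Mt1 passed in all 19 alternatives, and no named DEG changed sign. Among the 46 named genes, signs changed only in uncalled ones: Il13 was 0.052 with the random block and 0.044 with the replicate block, Il4 -0.19, -0.15 and -0.16 with the random block, slide and position, and replicate block, and Ccl17 -0.17, -0.18 and -0.29. Ccl11 was -0.17 with slide and position and -0.28 with the replicate block, and Ccl24 0.0017 with the same slides. With a sample left out, Il13 ran from -0.17 to 0.13, which for a gene not above background has no meaning as a direction, Il4 from -0.53 to 0.72, Ccl17 from -0.027 to 0.38, Ccl24 from -0.74 to 0.61 and Muc5ac from -0.34 to 1.92. The cause was not tested. Probes near background have no usable fold.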
